A study of Mus musculus with 32 samples.

Results

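The genes described are 5 listed as androgen-responsive in Sertoli cells of the mouse testis, Rhox5, Eppin, Tubb3, Drd4 and Slc15a1. The study reported Slc15a1 as a testosterone-regulated gene from these same arrays. The 5 were chosen by name, with earlier results of these data known. Each had 1 probe set with a single gene symbol, so that they make up 5 of the 20038 genes named on the arrays. The probe set of Rhox5 was absent from the platform's gene table and took its name from the gene lists published with the arrays. Those lists hold only transcripts over 2-fold higher in IP than in input with saline. Rhox5 could therefore be named only because it was enriched, and its enrichment below is a description. No gene symbol of the other 4 rested on that source.

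Sertoli cells are the somatic cells of the seminiferous tubule that nurse the germ cells. They respond to testosterone and to FSH, whereas Leydig cells, in the interstitium, respond to LH and make testosterone. Testosterone acts on genes through response elements in DNA, of which the best known are built on the half-site AGAACA. Rhox5 is an X-linked homeobox transcription factor and a textbook target of androgen in Sertoli cells. Eppin is a secreted protease inhibitor with a WAP and a Kunitz domain. Tubb3 is a class III beta tubulin of microtubules, Drd4 is the D4 dopamine receptor, a receptor coupled to inhibitory G proteins, and Slc15a1 is PEPT1, a proton-coupled carrier of small peptides.

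RNA was measured on 32 Mouse Gene 1.0 ST arrays from mice that carry the RiboTag allele, an HA-tagged ribosomal protein switched on by Cre, together with AMH-Cre (Sertoli cells) or Cyp17iCre (Leydig cells). All groups, controls included, carry both a Cre transgene and RiboTag, and AMH and Cyp17 promoters set which cells are tagged. In Cyp17iCre: RiboTag testes the study's staining also found tagged cells scattered inside the tubules, which limits that line as a Leydig cell model. From the IP to input ratios of Sertoli transcripts, the study took those cells to be Sertoli cells. Polysomes pulled down with anti-HA antibody are called IPs, and RNA of the whole testis homogenate is called input. AMH-Cre: RiboTag mice gave 5 saline inputs, 5 saline IPs, and 2 IPs each after cetrorelix, cetrorelix followed by testosterone, acyline, and acyline followed by FSH for 1 h or 4 h. Cyp17iCre: RiboTag mice gave 3 saline inputs, 3 saline IPs, and 2 IPs each after acyline and after acyline followed by LH for 1 h or 4 h. Cetrorelix and acyline are GnRH antagonists, which withdraw pituitary LH and FSH and so testicular testosterone. Testosterone was given 4 h before tissue was taken. The methods describe adult mice for the Sertoli hormone treatments, and 2 animals with checked serum hormones per treatment for the arrays.

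Values are log2 after RMA, the standard summary of Affymetrix probes, and a level on this scale is not compared between genes. Arrays of 1 group correlated at 0.988 to 0.994 over all probe sets, and no 2 arrays were identical. The label was met by the markers, with 12 of 12 measured Sertoli markers higher in AMH-Cre IPs than in input, among them Sox9 and Fshr, and 7 of 7 Leydig markers lower. In Cyp17iCre IPs all 7 Leydig markers were higher, and 2 of the 12 Sertoli markers, Gata4 and Trf, were also higher. Of the Leydig markers, Lhcgr took its name from the published lists of enriched genes, so its own enrichment is no check. Nothing in the labels says that arrays of 1 group came from separate mice, so p-values measure the spread between these arrays. In an IP, fewer cells of a type and less RNA per cell cannot be told apart.

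Promoter sequence was taken from RefSeq (GRCm38.p6) for all 5 genes, as the table's window from 250 bases before to 50 bases after the annotated start of a transcript. For Drd4 that start lies downstream of the first annotated base of the gene. The windows of Rhox5 and Eppin are shown because they hold the half-site of the androgen response element, and that of Slc15a1 because it is the member whose level differed most between the testosterone and cetrorelix arrays. Capitals mark AGAACA, read on either strand (TGTTCT), and sequences run 5′ to 3′ along the gene. The windows lie at chrX:37754358-37754657 (plus strand), chr2:164593522-164593821 (minus strand) and chr14:121505205-121505504 (minus strand).
Rhox5: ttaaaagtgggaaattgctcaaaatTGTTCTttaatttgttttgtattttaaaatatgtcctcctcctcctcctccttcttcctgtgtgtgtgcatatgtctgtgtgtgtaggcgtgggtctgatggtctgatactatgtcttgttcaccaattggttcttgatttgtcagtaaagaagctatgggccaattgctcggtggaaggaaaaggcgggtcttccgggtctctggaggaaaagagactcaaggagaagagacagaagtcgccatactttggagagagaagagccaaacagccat
Eppin: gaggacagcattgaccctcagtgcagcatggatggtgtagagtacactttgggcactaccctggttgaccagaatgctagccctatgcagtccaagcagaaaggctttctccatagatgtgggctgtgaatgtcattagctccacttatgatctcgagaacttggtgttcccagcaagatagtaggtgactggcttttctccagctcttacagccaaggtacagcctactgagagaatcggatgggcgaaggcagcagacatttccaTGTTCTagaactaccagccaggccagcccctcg
Slc15a1: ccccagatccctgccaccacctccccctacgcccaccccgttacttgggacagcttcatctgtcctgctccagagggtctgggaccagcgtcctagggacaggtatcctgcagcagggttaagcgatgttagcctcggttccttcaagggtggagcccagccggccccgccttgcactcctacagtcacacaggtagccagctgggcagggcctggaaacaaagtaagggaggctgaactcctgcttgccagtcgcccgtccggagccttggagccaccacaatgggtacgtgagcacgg

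The Rhox5 window held 1 half-site at position -225, and the Eppin window held 1 at position 18 after the start. The windows of Tubb3, Drd4 and Slc15a1 held none, and no member's window held the full androgen response element, the half-site repeated in inverted form after a spacer. Among all 32851 promoter windows, 19% held the half-site and 0.00913% the full element, so that 2 of 5 members is a description of these letters only. Rhox5 is known to use alternative promoters, and the table holds 1 window for it, so the window shown need not be the one used in Sertoli cells. GC content ran from 43.7% in Rhox5 to 67.3% in Tubb3.

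All 5 genes were strongly enriched on Sertoli cell polysomes. In saline-treated AMH-Cre: RiboTag mice the IP exceeded the input by 4.68-fold for Drd4 up to 5.65-fold for Slc15a1. Each member was called higher, and in each the 5 IPs lay above all 5 inputs. For Rhox5, named only through lists of enriched genes, that call was set in advance. Slc15a1 was singled out by the study as highly enriched in these same arrays, so its call is a description. A call needed a limma adjusted p under 0.05 and a 2-fold difference. By that rule 24.1% of 24797 probe sets tested were called, 12.4% higher. The median log2 difference of the 5 genes was 2.43, against -0.026 over all probe sets tested.

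For Rhox5 the 5 IPs read between 9.19 and 9.84 (median 9.53) and the inputs between 6.92 and 7.40 (median 7.03). The difference was 2.40 on the log2 scale (SE 0.13, limma adjusted p = 5.99e-09), or 5.29-fold. Eppin, the protease inhibitor, ran from 11.90 to 12.16 in the IPs and from 9.41 to 9.77 in the inputs, a 5.40-fold difference (log2 2.43, SE 0.080, limma adjusted p = 2.16e-10). These 2 genes thus separated IP from input by more than the whole spread of either group.

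Tubb3 lay between 10.40 and 10.73 in the IPs and between 7.85 and 8.36 in the inputs, giving 5.63-fold enrichment (log2 2.49, SE 0.097, limma adjusted p = 6.28e-10). Drd4 read 10.07, 9.77, 10.02, 10.01 and 9.76 in the 5 IPs and from 7.27 to 7.95 in the inputs. Its enrichment of 4.68-fold (log2 2.23, SE 0.12, limma adjusted p = 8.96e-09) had an interval of 1.96 to 2.50 on the log2 scale, which overlaps those of the other 4. Slc15a1 read 8.05, 8.75, 8.68, 8.08 and 7.84 in the IPs and between 5.60 and 5.91 in the inputs. Its saline IPs had the widest spread of the 5 genes (SD 0.41), and the difference was 5.65-fold (log2 2.50, SE 0.17, limma adjusted p = 4.70e-08).

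**Figure D1:**
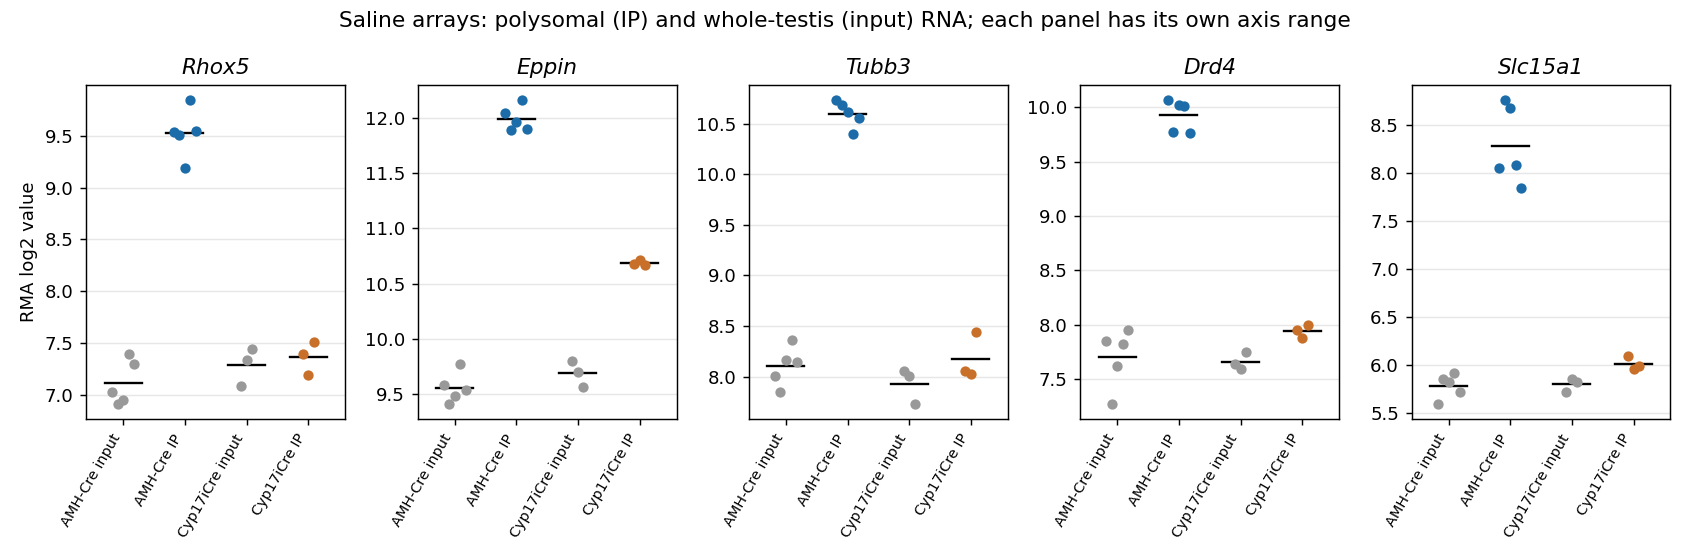
RMA log2 values (y axis) of the 5 genes in saline arrays of both Cre lines (x axis: AMH-Cre input and IP, n = 5 each; Cyp17iCre input and IP, n = 3 each). Points are arrays and bars are group means; all 5 genes are higher in every AMH-Cre IP than in any input, and in the Cyp17iCre line only Eppin comes near 2-fold.

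In Leydig cell IPs 4 of the 5 genes lay 1.06- to 1.21-fold above whole testis, and Eppin 1.996-fold. None of the 5 was called in the comparison of 3 Cyp17iCre IPs with 3 inputs by limma, where 21.7% of 24705 probe sets were called. At an unadjusted p under 0.05 without the fold, 3 of the 5 passed, as did 65.4% of all probe sets. Eppin was the exception in size, with 10.68, 10.71 and 10.67 in the IPs against 9.80, 9.70 and 9.57 in the inputs. Its log2 difference of 1.00 (SE 0.081, limma adjusted p = 1.72e-05) is 1.996-fold, just under the threshold of 2-fold, and it crosses that threshold under quantile normalization (log2 1.09) and when IP 1, IP 3, input 1 or input 2 is left out (log2 1.001 to 1.05). Drd4 was 1.21-fold higher (limma adjusted p = 0.0143) and Slc15a1 1.16-fold (limma adjusted p = 0.0413), with IPs and inputs separate in both. For Tubb3 (1.18-fold, limma adjusted p = 0.163) and Rhox5 (1.06-fold, limma adjusted p = 0.586) the groups overlapped.

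The difference of enrichment between the 2 Cre lines was tested itself, as an interaction over the 16 saline arrays. It was called for 5 of 5 genes, all in favour of Sertoli cells, against 11.5% of 25524 probe sets called and 5.98% called in that direction. The part of Rhox5 in that count is a description, since its name came from lists of enriched genes. That of Slc15a1 is a description too, since the study singled it out as highly enriched in Sertoli cells. The enrichment of Rhox5 was 4.99-fold stronger in the AMH-Cre line (log2 2.32, SE 0.20, limma adjusted p = 9.82e-08), that of Slc15a1 4.87-fold (log2 2.28, SE 0.24), that of Tubb3 4.76-fold (log2 2.25, SE 0.17) and that of Drd4 3.85-fold (log2 1.94, SE 0.18). Eppin had the smallest value, 2.71-fold (log2 1.44, SE 0.12, limma adjusted p = 6.88e-08). Beside these values, the mean of the 12 Sertoli markers in Cyp17iCre saline IPs was 8.93 to 9.19 against 8.53 to 8.57 in the inputs of that line.

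Over all 32 arrays the 6 groups of Sertoli IPs ranked above the 6 other groups for every gene. The lowest of the 15 Sertoli IPs exceeded the highest of the 17 other arrays by 1.27 on the log2 scale for Rhox5, 1.15 for Eppin, 1.61 for Tubb3, 0.94 for Drd4 and 1.04 for Slc15a1. Below that step, Leydig IPs and inputs of both lines mixed for Rhox5, Drd4 and Slc15a1, while for Eppin and Tubb3 the 4 Leydig IP groups ranked above both input groups, without overlap for Eppin only. Within the Sertoli IPs few neighbours in the order were separate. For Rhox5, Tubb3 and Slc15a1 no neighbouring pair of Sertoli IP groups was free of overlap, for Eppin acyline stood above cetrorelix, and for Drd4 cetrorelix stood above acyline and acyline above testosterone. The group means of the Sertoli IPs spanned 0.14 for Eppin, 0.28 for Tubb3, 0.33 for Rhox5, 0.56 for Drd4 and 0.90 for Slc15a1.

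The testosterone arrays ask whether the hormone, given back to cetrorelix-treated mice, moves genes on Sertoli cell polysomes within hours. Rhox5 and Eppin hardly differed between the testosterone and the cetrorelix arrays, Drd4 was lower and Slc15a1 higher in the testosterone arrays, and none of the 5 passed the test. Limma called 1 of 24648 probe sets in that comparison (0.00406%) at an adjusted p under 0.05 and 1.5-fold, and 233 at an unadjusted p under 0.05 with the same fold (0.945%). At the unadjusted p alone 5.01% of probe sets and 2 of the 5 genes passed, Drd4 and Slc15a1, and 1 of them, Slc15a1, also reached the fold.

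Slc15a1 read 8.23 and 8.75 in the testosterone arrays and 7.93 and 7.40 in the cetrorelix arrays. Both testosterone arrays lay above both cetrorelix arrays, with 1 inside the saline range of 7.84 to 8.75 and the other level with its top (8.755 against 8.754). The difference was 0.83 on the log2 scale (SE 0.33, 95% interval 0.11 to 1.55), or 1.78-fold, with a limma adjusted p of 0.930 (unadjusted 0.0269). Leaving out 1 array of either group gave values between 0.56 and 1.10. Against saline, cetrorelix arrays were 0.61 lower (95% interval -1.21 to -0.014, limma adjusted p = 0.933) and overlapped the saline arrays, of which 1 lay below the higher cetrorelix array. These 2 comparisons share the cetrorelix arrays, and Slc15a1 is one of the genes that the study singled out from this contrast, so its values here are a description.

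Drd4 read 9.40 and 9.35 in the testosterone arrays, 9.93 and 9.70 in the cetrorelix arrays and 9.76 to 10.07 in the saline arrays. The testosterone arrays were thus below every cetrorelix and every saline array. The dopamine receptor was 0.44 lower than with cetrorelix alone (SE 0.15, 95% interval -0.77 to -0.11, limma adjusted p = 0.930) and 0.55 lower than with saline (SE 0.13, 95% interval -0.83 to -0.28, limma adjusted p = 0.719). Drd4 was as low after acyline followed by FSH for 1 h, without testosterone given (mean 9.37, as with testosterone). In the comparison of testosterone with saline 0 of the 5 genes and 0% of 24648 probe sets were called by limma. At an unadjusted p under 0.05 with the fold, 157 probe sets passed (0.637%), and of the 5 genes Drd4 passed the unadjusted p, as did 4.29% of probe sets, without reaching 1.5-fold. The other 4 genes overlapped the saline arrays after testosterone, at -0.17 for Rhox5 (95% interval -0.47 to 0.13), -0.019 for Eppin (-0.21 to 0.17), -0.096 for Tubb3 (-0.31 to 0.12) and 0.22 for Slc15a1 (-0.38 to 0.82).

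The 3 remaining genes moved little. Rhox5 read 9.30 and 9.41 after testosterone and 9.44 and 9.34 after cetrorelix, a difference of -0.036 (95% interval -0.40 to 0.32, limma adjusted p = 0.991). For Eppin the values were 11.89 and 12.05 against 12.06 and 11.98, a difference of -0.048 (95% interval -0.28 to 0.18, limma adjusted p = 0.976). Tubb3 read 10.39 and 10.62 against 10.70 and 10.61, a difference of -0.15 (95% interval -0.40 to 0.10, limma adjusted p = 0.930). The arrays of the 2 groups overlapped in all 3 genes, and the upper bounds of the intervals lie under 1.5-fold (0.58 on the log2 scale).

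**Figure D2:**
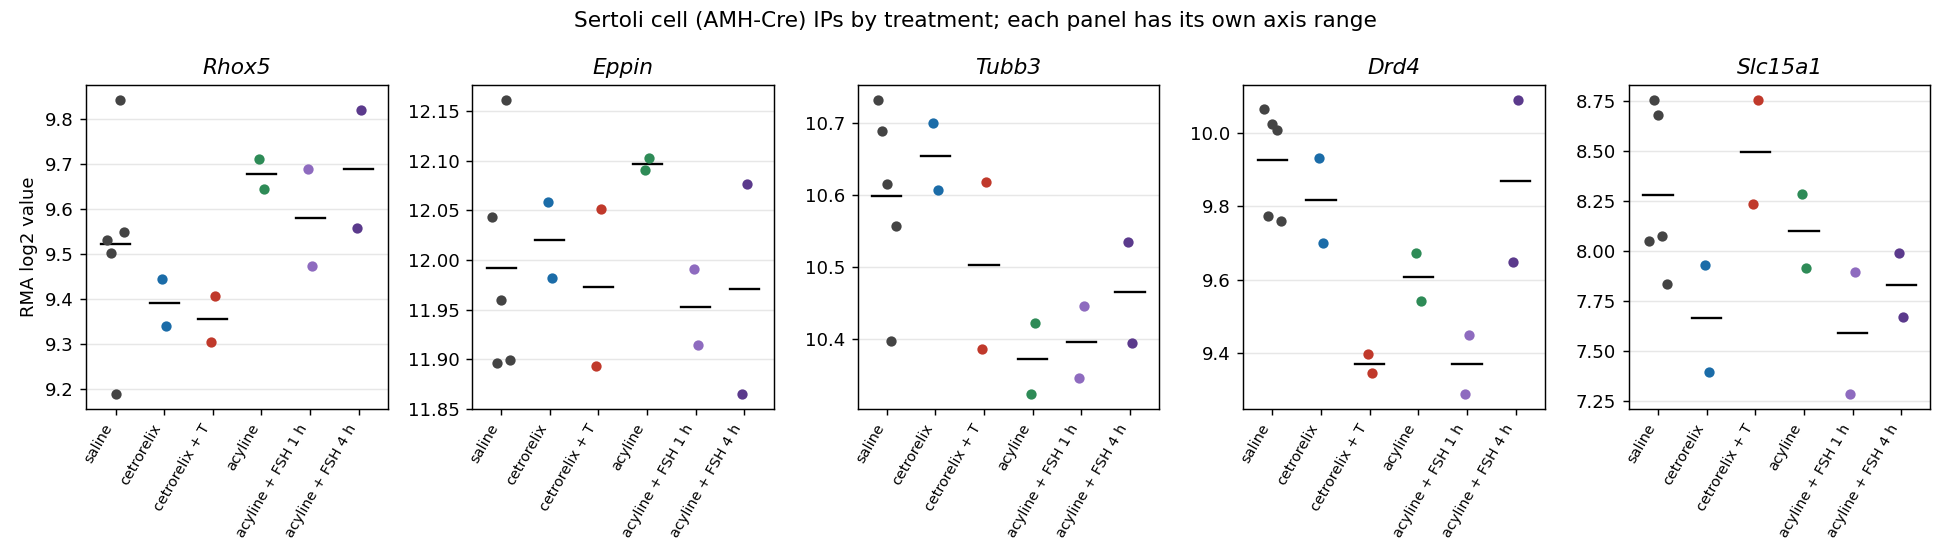
RMA log2 values (y axis, own range per gene) of the 5 genes in the 15 Sertoli cell IPs by treatment (x axis; saline n = 5, all others n = 2). Points are arrays and bars are group means; T is testosterone, and the testosterone arrays of Drd4 lie below all saline and cetrorelix arrays while those of Slc15a1 lie above both cetrorelix arrays.

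Withdrawal of gonadotropins by either antagonist was compared with saline, and the widest differences were those of Slc15a1 with cetrorelix (-0.61, given above) and Drd4 with acyline. For cetrorelix against saline 0 of the 5 were called by limma, against 3 of 24648 probe sets (0.0122%). At an unadjusted p under 0.05 with the fold, 136 probe sets passed (0.552%), Slc15a1 among them as the 1 member, and 4.99% passed the unadjusted p alone. The differences of the other 4 were -0.13 for Rhox5, 0.028 for Eppin, 0.055 for Tubb3 and -0.11 for Drd4, all with overlapping arrays and limma adjusted p of 0.957 or more. For acyline against saline 0 of the 5 and 1 probe set (0.00406%) were called by limma, and 2 of the 5, Tubb3 and Drd4, passed at an unadjusted p under 0.05, as did 5.01% of probe sets. Drd4 read 9.67 and 9.54 after acyline, below all 5 saline arrays, a difference of -0.32 (95% interval -0.60 to -0.043, limma adjusted p = 0.966). Tubb3 was 0.23 lower (95% interval -0.44 to -0.014, limma adjusted p = 0.966) with arrays that overlapped saline. Rhox5 read 9.71 and 9.64 (0.15 higher, 95% interval -0.15 to 0.46), Eppin 12.09 and 12.10 (0.11 higher, 95% interval -0.088 to 0.30) and Slc15a1 8.29 and 7.91 (0.18 lower, 95% interval -0.78 to 0.42), all within the saline range. The same 5 saline arrays serve all 3 comparisons with saline. Nothing in the labels says which of the study's hormone experiments each saline array belongs to.

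The 2 antagonists were also set against each other, and 0 of the 5 genes and 1 probe set (0.00406%) were called by limma, with 1 of the 5, Tubb3, and 8.11% of probe sets under an unadjusted p of 0.05. The study describes the cetrorelix and the acyline treatments as separate experiments, so antagonist and experiment cannot be told apart here. Tubb3 was 0.28 higher with cetrorelix (95% interval 0.028 to 0.53, limma adjusted p = 0.586). Rhox5 was 0.29 lower with cetrorelix (95% interval -0.65 to 0.074, limma adjusted p = 0.684). Eppin differed by -0.077 (95% interval -0.31 to 0.15) and Drd4 by 0.21 (95% interval -0.12 to 0.54). Slc15a1 differed by -0.43 (95% interval -1.15 to 0.28, limma adjusted p = 0.754).

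FSH was given after acyline, without testosterone. At 1 h 0 of the 5 genes and 0% of probe sets were called by limma, and at 4 h 0 of the 5 and 5 probe sets (0.0203%). No member passed at an unadjusted p under 0.05 at either time, against 9.43% of probe sets at 1 h and 4.4% at 4 h. Rhox5 differed from acyline by -0.097 at 1 h and 0.012 at 4 h, Eppin by -0.14 and -0.13, and Tubb3 by 0.023 and 0.092. Drd4 ran from 9.29 to 9.45 at 1 h and read 9.65 and 10.09 at 4 h, differences of -0.24 (95% interval -0.57 to 0.094) and 0.26 (95% interval -0.069 to 0.59). Slc15a1 was 0.51 lower than with acyline at 1 h (95% interval -1.23 to 0.21), with separate arrays.

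**Figure D3:**
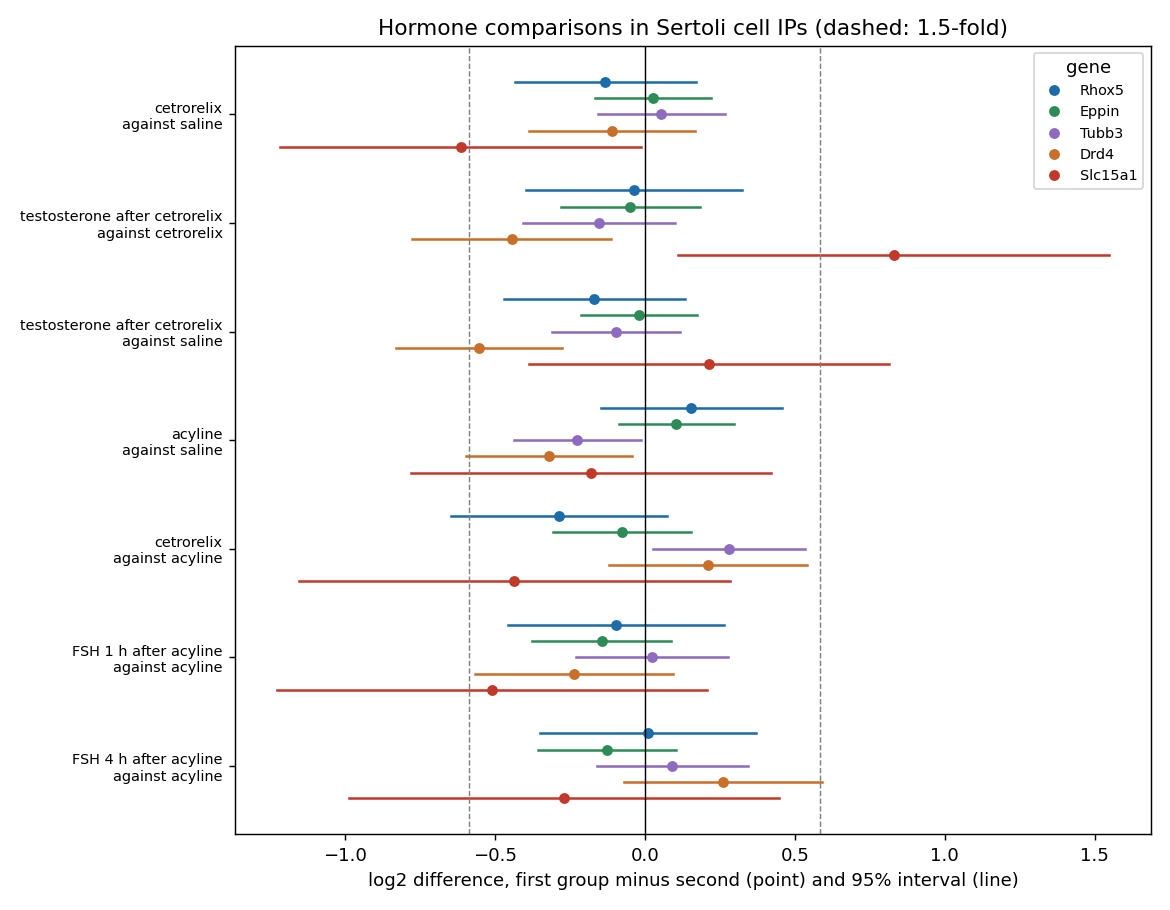
Log2 differences (x axis, first group minus second) of the 5 genes in 7 comparisons of Sertoli cell IPs (y axis). Points are limma estimates and lines their 95% intervals; dashed lines mark 1.5-fold, and the intervals of Slc15a1 are the widest, with 0.83 for testosterone against cetrorelix the largest positive value.

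Markers of other cells were read in the same IPs. The mean of the 7 Leydig markers in Sertoli IPs was 7.33 to 7.84 with saline, 6.98 to 7.18 with cetrorelix, 7.04 to 7.25 with testosterone and 6.72 to 7.01 with acyline. The 7 did not move alike. With cetrorelix against saline, Cyp11a1 (-1.51), Cyp17a1 (-1.41), Star (-0.57), Hsd3b6 (-0.56) and Hsd17b3 (-0.20) were lower, and Hsd3b1 (0.35) and Lhcgr (0.091) higher. In Leydig IPs after acyline, Cyp11a1 (-0.83), Hsd3b6 (-0.75), Star (-0.61), Hsd17b3 (-0.34) and Cyp17a1 (-0.26) were lower. There Lhcgr hardly differed (-0.018) and Hsd3b1 was higher (0.43). This mean cannot tell Leydig cell content from regulation of its genes. Spermatid markers (8 genes) averaged 10.65 to 10.77 with cetrorelix and 10.73 to 11.10 with testosterone, whereas the 12 Sertoli markers averaged 10.77 to 10.89 and 10.62 to 10.84. The part of such shifts in the differences of Drd4 and Slc15a1 was not tested.

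In Leydig cell IPs the 5 genes were followed after acyline and LH, with Eppin in all 9 IPs above every input (9.98 against 9.80 at the closest). None was called by limma after acyline (35 of 24461 probe sets, 0.143%), after LH for 1 h (2 probe sets, 0.00818%) or after LH for 4 h (150 probe sets, 0.613%), and 1 of the 5, Drd4, passed at an unadjusted p under 0.05 after acyline. Of all probe sets 13.7% passed that p after acyline, 6.06% after LH for 1 h and 18.3% after LH for 4 h. Drd4 read 7.28 and 7.49 after acyline against 7.95, 7.87 and 7.998 with saline, a difference of -0.55 (95% interval -1.10 to -0.0074, limma adjusted p = 0.359). Slc15a1 was 0.34 lower and Eppin 0.28 lower after acyline, both with separate arrays and limma adjusted p of 0.408 and 0.419. Rhox5 (0.0040) and Tubb3 (-0.034) differed little in the mean, while their 2 acyline arrays were far apart, at 7.60 and 7.15 for Rhox5 and 8.54 and 7.74 for Tubb3. After LH for 1 h the differences from acyline ran from -0.25 for Rhox5 to 0.36 for Slc15a1, and after LH for 4 h from -0.23 for Eppin to 0.49 for Drd4, all with overlapping arrays. In the arrays of LH for 4 h, the 2 replicates of Drd4 stood apart, at 8.35 and 7.41, as did those of Rhox5, at 6.95 and 7.92.

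**Figure D4:**
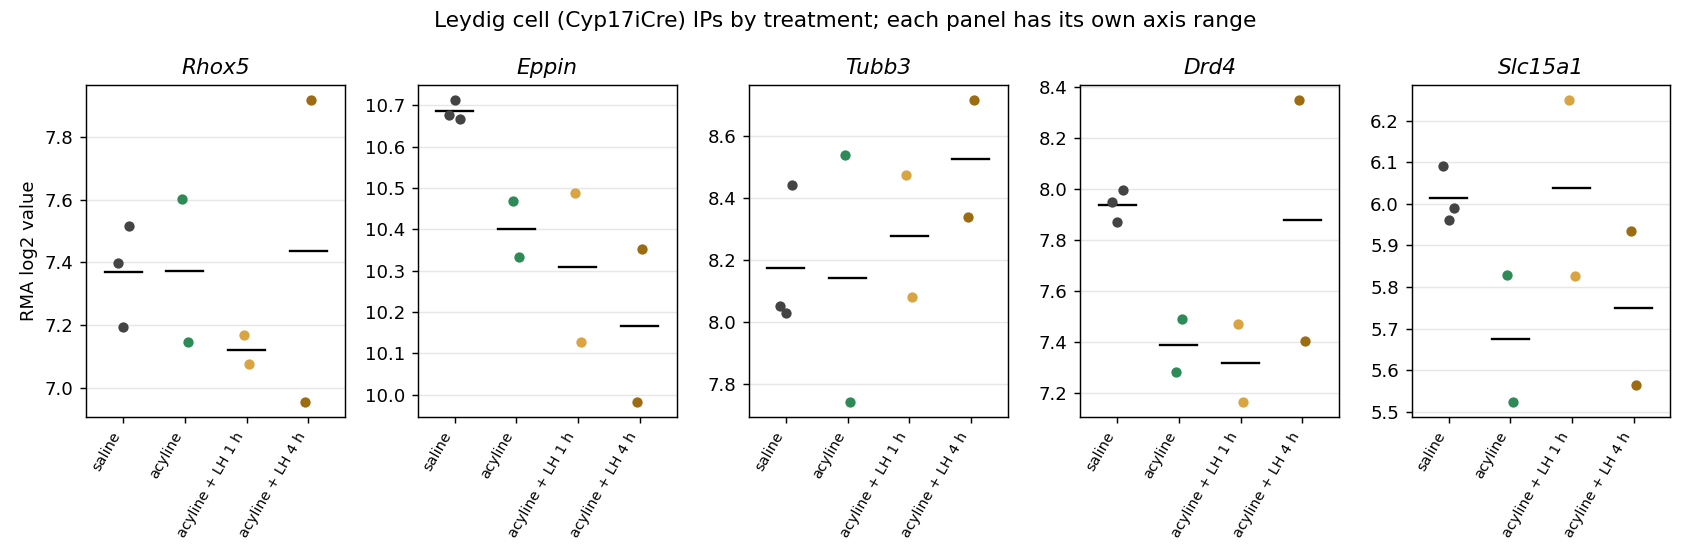
RMA log2 values (y axis, own range per gene) of the 5 genes in the 9 Leydig cell IPs by treatment (x axis; saline n = 3, all others n = 2). Points are arrays and bars are group means; the saline arrays of Drd4, Eppin and Slc15a1 lie above both acyline arrays, and none of the 5 genes was called.

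Genes that carry, fold or convert the androgen signal were read as a list of 17 measured partners. Of these, 5 were called higher and 0 lower in Sertoli IPs, where 12.4% of all probe sets were called higher, with a median log2 difference of 0.49. They were Shbg (4.48-fold), whose gene also gives rise to androgen-binding protein, the steroid receptor coactivator Ncoa2 (4.20-fold, log2 2.07), the co-chaperone Fkbp5 (3.22-fold), the chaperone Hspa8 (2.80-fold) and Srd5a3 (2.25-fold), a steroid reductase family member.

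In Leydig IPs 3 of these 17 were called higher, Fkbp5 (5.00-fold), Srd5a3 (2.39-fold) and Hspa8 (2.33-fold), and Pias1 was called lower, a share near the 21.7% of all probe sets called. The interaction was called for 2 of the 17, near the 11.5% of all probe sets, Shbg (4.20-fold stronger in Sertoli cells) and Ncoa2 (3.23-fold). No gene of this list was called by limma in any of the 7 hormone comparisons of Sertoli IPs.

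Another 5 genes with reported androgen responses in Sertoli cells were compared. All 5 were called higher in Sertoli IPs, Gpd1 (glycerol-3-phosphate dehydrogenase) by 5.30-fold, the homeobox gene Rhox8 (also among the 12 Sertoli markers) by 5.05-fold, the beta-defensin Defb45 by 4.18-fold, the tight junction claudin Cldn3 by 3.71-fold and B4galnt1, a ganglioside synthase, by 2.69-fold. The difference of enrichment was called for 4 of them, in favour of Sertoli cells, and not for Gpd1, which was also 4.04-fold higher in Leydig IPs. Of all probe sets, 12.4% were called higher in Sertoli IPs, and 5.98% by the difference of enrichment in that direction. None of these 5 genes was called after testosterone, against 0.00406% of probe sets. There Defb45 and Cldn3 were 0.36 and 0.35 lower than with cetrorelix (limma adjusted p = 0.930 for both) and Rhox8 was 0.048 higher.

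**Figure D5:**
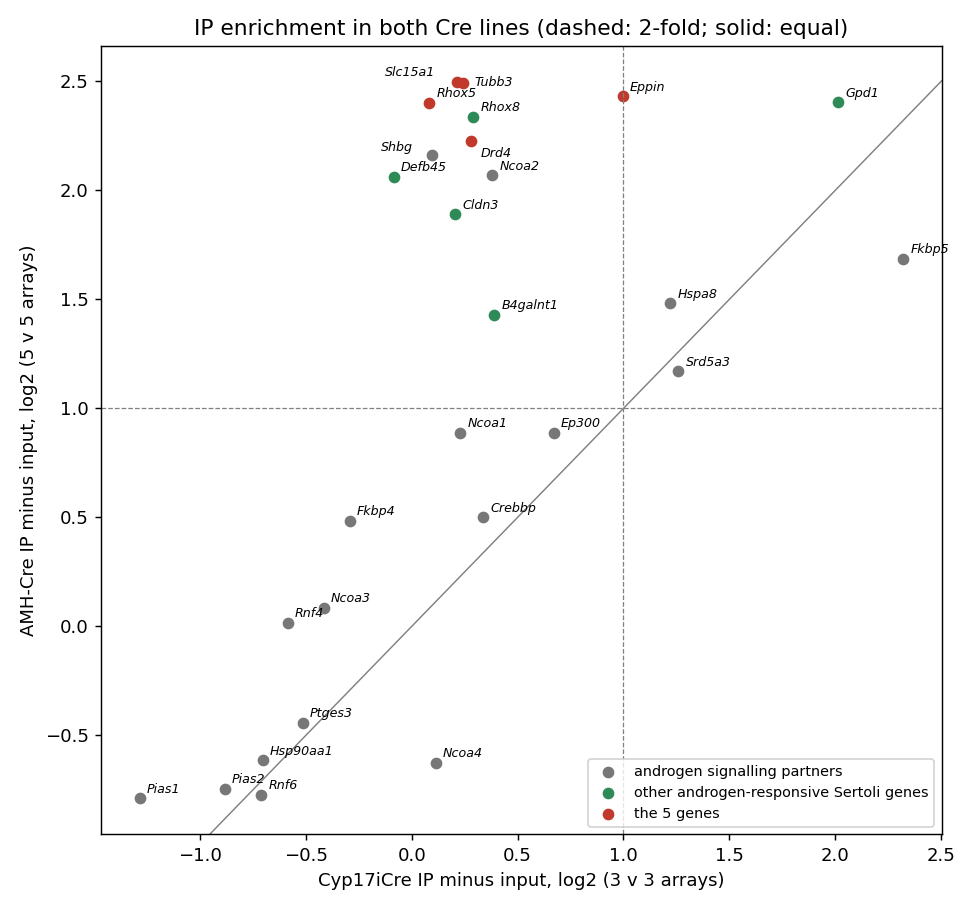
Log2 IP minus input differences in Cyp17iCre (x axis, 3 against 3 arrays) and AMH-Cre mice (y axis, 5 against 5 arrays) for the 5 genes, 17 androgen signalling partners, and other androgen-responsive Sertoli genes. Dashed lines mark 2-fold and the solid line equal values; Eppin lies at 1.00 on the x axis, and the other 4 of the 5 genes between 0.083 and 0.28.

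Relatives of the members were read from lists of their families, beside the 12.4% of all probe sets called higher. Of 6 tested Rhox homeobox genes other than Rhox5, 1 was called higher in Sertoli IPs, Rhox8, and 1 lower, Rhox13 (log2 -1.13). Of 6 beta tubulins other than Tubb3, Tubb5 was called, at 5.58-fold. Of 2 other dopamine receptors and 3 other Slc15 transporters none was called by limma in Sertoli IPs. Among 18 tested WAP and Kunitz inhibitor genes other than Eppin, 4 were called higher, Wfdc6a (5.87-fold), Wfdc10 (5.77-fold), Wfdc1 (5.28-fold) and Wfdc9 (3.54-fold), and 3 lower. Wfdc6a is the gene next to Eppin on chromosome 2 in RefSeq (GRCm38.p6), and it was 1.17-fold higher in Leydig IPs (limma adjusted p = 0.116). Wfdc8, on the other side of Eppin, was 1.76-fold higher in Sertoli IPs and not called.

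The values of Slc15a1 after testosterone were read beside those of Pyroxd2, Kazald1 and Myof. The study named all of these genes for the same contrast and reported that qRT-PCR also showed their increase. The rule it describes for the arrays joins a p-value with a fold and mentions no adjustment for multiple testing. That list was chosen on these samples. Pyroxd2, a gene of the pyridine nucleotide-disulphide oxidoreductase family, read 6.14 and 5.99 with cetrorelix and 8.13 and 8.17 with testosterone, 4.26-fold higher (log2 2.09, SE 0.11, limma adjusted p = 7.82e-06), and was the 1 probe set called. Kazald1 was 0.90 higher (SE 0.19) and Myof 0.95 higher (SE 0.33), both with a limma adjusted p of 0.930. The SE of Slc15a1 was 0.33 in this fit, near that of Myof, and its saline arrays spread over 0.92 on the log2 scale. Pyroxd2 was as low with acyline followed by FSH for 4 h (mean 6.06) as with cetrorelix, against 7.93 with acyline alone. That difference from acyline was -1.88 (limma adjusted p = 2.74e-05). Kazald1 (-1.14), Myof (-0.62) and Slc15a1 (-0.27) were also lower in that comparison, and none of them was called. The 95% intervals of Myof (-1.34 to 0.10) and Slc15a1 (-0.99 to 0.45) included no difference, and the arrays of Slc15a1 overlapped. The low level of Pyroxd2 was thus not particular to the cetrorelix arrays.

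Likeness of pattern was read as Pearson's r over the 15 Sertoli IPs, among 17100 probe sets with 1 symbol, as a description over arrays that share treatments and normalization. The closest were Cst9 for Rhox5 (r = 0.88), Cpe for Eppin (r = 0.83), Zyg11b for Tubb3 (r = 0.92), Fndc3b for Drd4 (r = 0.83) and Entpd2 for Slc15a1 (r = 0.90). Over all 32 arrays, where the step between Sertoli IPs and the rest dominates, the closest were Tiam1 for Rhox5 (r = 0.99), Kif21a for Eppin (r = 0.99), Xpnpep1 for Tubb3 (r = 0.99), Ttyh1 for Drd4 (r = 0.98) and Lpcat1 for Slc15a1 (r = 0.98). Among themselves the 5 genes correlated at 0.92 to 0.97 over all 32 arrays. Within the 15 Sertoli IPs the 10 pairs ran from -0.54 (Rhox5 with Tubb3) to 0.55 (Rhox5 with Eppin).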

How the data were processed

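RNA of whole testis (input) and of anti-HA polysome IPs was hybridised to 32 arrays, 1 per sample. The authors summarised the arrays by RMA; the deposited values are log2 signals of 35556 probe sets. No scanner file was used. Groups follow the sample titles. The source names of the 4 cetrorelix arrays call them input, against their titles and sample types, which were followed. Single gene symbols came from the platform table (21789 probe sets). For 141 probe sets it does not list, they came from the study's published lists of IP-enriched genes (names only, Rhox5 and Lhcgr among them).

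Contrasts were fitted with limma 3.58.1 in R 4.3.3 on probe sets over 50 (linear) in at least 1 array of the fit: IP against input within each Cre line, their difference over all saline arrays, and treatments among all IPs of a line. P-values were adjusted by Benjamini-Hochberg over all probe sets tested, two-sided. Calls needed an adjusted p under 0.05 and 2-fold (IP against input) or 1.5-fold (between IPs). The number of arrays limits the precision. Alternatives were no filter, median centring, quantile normalization, no adjustment, a replicate block, only the groups compared, fewer saline arrays and leaving out each array. Scripts were tested on simulated data. The named genes are the 5 members, genes of the lists by role, and for each member the probe sets with the highest correlation. Members and lists were chosen with earlier results of these data known. Some genes of the androgen signalling list are not reported here.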

Additional observations from a re-analysis of the deposited data

Results flagged for a closer look

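The enrichment in IP over input differed between the 2 Cre lines for all 5 genes by the interaction test. Rhox5 took its name from lists of enriched genes, and the study singled out Slc15a1 as highly enriched in these arrays. The values of both are therefore a description. The difference, AMH-Cre minus Cyp17iCre on the log2 scale, was 2.32 for Rhox5, 1.44 for Eppin, 2.25 for Tubb3, 1.94 for Drd4 and 2.28 for Slc15a1. Of 10 checks for a saline array far from the other 4 of its group (5 genes in Sertoli IPs and inputs), 0 found one.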

How the results depend on the processing

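The 5 calls of Sertoli enrichment and the 5 of the difference between lines held under every alternative run. In the Leydig line, 1 member, Eppin, was called in place of 0 under quantile normalization, and 0 to 1 with 1 array left out. Without the p adjustment 1 member, Slc15a1, was called for cetrorelix against saline and 1, again Slc15a1, for testosterone against cetrorelix. With 1 array left out, 0 to 1 members were called for LH at 4 h (Drd4 at 0.96, without the second LH array).

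Under the alternatives 37 values of member differences changed sign. By setting, Rhox5 in Leydig enrichment gave -0.010 with quantile normalization, Tubb3 for FSH at 1 h gave -0.00097 with median centring, and with saline replicates 1 to 3 only, Tubb3 for cetrorelix against saline gave -0.025 and Eppin for testosterone against saline 0.0062. With the replicate block, Tubb3 gave -0.057 for cetrorelix against saline and 0.10 for acyline in Leydig IPs, and Eppin 0.0029 for testosterone against saline.

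With 1 array left out, Rhox5 ranged from -0.018 to 0.17 in Leydig enrichment, -0.088 to 0.016 for testosterone against cetrorelix, -0.21 to 0.012 and -0.12 to 0.14 for FSH at 1 h and 4 h, -0.22 to 0.23 for acyline in Leydig IPs and -0.42 to 0.55 for LH at 4 h. Eppin ranged from -0.0098 to 0.071 for cetrorelix against saline, -0.13 to 0.031 for testosterone against cetrorelix, -0.10 to 0.060 for testosterone against saline and -0.27 to 0.087 for LH at 1 h. Tubb3 ranged from -0.21 to 0.020 for testosterone against saline, -0.028 to 0.074 for FSH at 1 h, -0.43 to 0.36 for acyline in Leydig IPs, and -0.26 to 0.54 and -0.012 to 0.79 for LH at 1 h and 4 h. Drd4 ranged from -0.23 to 0.0057 for cetrorelix against saline and -0.22 to 0.086 for LH at 1 h. Slc15a1 ranged from -0.045 to 0.48 for testosterone against saline, -0.37 to 0.0064 for acyline against saline and -0.11 to 0.26 for LH at 4 h. The causes were not tested.

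The study compared IPs with their respective inputs, and nothing says that the replicate numbers join them. In their deviations, same-numbered IPs and inputs correlated at -0.027 to 0.16 (Sertoli) and 0.024 to 0.15 (Leydig), and treated and saline IPs at -0.19 to 0.13. The replicate block left the members called at 5, 0 and 5 for the enrichments and 0 for every hormone comparison. Crossed numbers, chosen after seeing the data, gave 0 members for testosterone against cetrorelix and LH at 4 h, and 0 and 29 probe sets.

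Counts of probe sets called in hormone comparisons moved more. Without the p adjustment they were 136 for cetrorelix against saline (3 as reported), 233 for testosterone against cetrorelix (1), 157 for testosterone against saline (0), 161 for acyline against saline (1), 262 between the antagonists (1), 399 and 211 for FSH at 1 h and 4 h (0 and 5), 837 for acyline in Leydig IPs (35), and 295 and 924 for LH at 1 h and 4 h (2 and 150). With only the groups compared in the fit, LH at 4 h gave 1, acyline in Leydig IPs 246, cetrorelix against saline 1, and testosterone against cetrorelix, acyline against saline, the antagonists against each other, FSH at 4 h and LH at 1 h 0. The replicate block gave 4 for LH at 4 h, 1 for FSH at 4 h, and 0 for LH at 1 h, acyline in Leydig IPs and acyline against saline. Without the filter LH at 4 h gave 19, acyline in Leydig IPs 15, FSH at 4 h 3, cetrorelix against saline 1, and LH at 1 h and acyline against saline 0. LH at 4 h gave 235 with median centring, 90 with quantile normalization and 1 to 482 with 1 array left out, and acyline against saline gave 0 with either scaling and 8 with saline replicates 1 to 3. With 2 arrays a group, the spread limits what can be called.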
